A study of Mus musculus with 5 samples.

Results

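The clustered histone genes are mostly the replication-dependent histone genes of the mouse, and here they were all rows of the deposited results table whose gene symbol begins with Hist1h, Hist2h, Hist3h or Hist4h. The rule uses names only and took 65 of 25549 rows: 6 of linker histone H1, 18 of H2A, 18 of H2B, 10 of H3 and 13 of H4. By cluster, 56 belong to Hist1 on chromosome 13, 5 to Hist2 on chromosome 3, 3 to Hist3 on chromosome 11 and 1 to Hist4 on chromosome 6. The authors gave a p-value for 64 of the 65. Hist1h2bk, an H2B gene, had none and was listed at 0.99 on the log2 scale by the authors' deposited table. All 65 rows were found by symbol in the GENCODE M21 annotation, which classes 62 as protein-coding and 3 as pseudogenes (Hist3h2bb-ps, Hist1h2al and Hist1h2aj).

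RNA came from mast cells of C57BL/6 mice that had been grown out of marrow for 6 to 8 weeks with 50 ng/mL recombinant interleukin-3 and otherwise untreated. The control samples carried Cpa3-Cre alone (n = 2) and the others carried Cpa3-Cre;miR-9∆fl/∆fl, called the miR-9 line below (n = 3). Both groups therefore carry the Cre recombinase under the promoter of Cpa3, a mast cell carboxypeptidase gene. The labels state that the mice were matched for age and sex, give no age, and do not say what recombination does to miR-9. Nothing states that samples of a group are from different mice or cultures, so the p-values reflect only the spread among these samples, and that spread may be technical. Values per library were not analysed here, and all fold changes are the authors', positive for genes higher in the miR-9 line.

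Histones H2A, H2B, H3 and H4 form the core of the nucleosome, and H1 binds the DNA between cores. Most genes in these clusters are transcribed in S phase, when new DNA must be packaged, under the coactivator NPAT. Their mRNAs are not polyadenylated as a rule: they end in a conserved stem-loop that is bound by SLBP and cut with the help of the U7 snRNP. The libraries were made from total RNA after removal of ribosomal RNA, so capture did not depend on a poly(A) tail. In bulk RNA, a different share of cells in S phase and a different amount of histone mRNA per such cell cannot be told apart.

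The promoters of the 3 members that passed the test, and of the member with the lowest fold change, show the elements by which these genes are usually recognised. Each run below is the 250 bases before the RefSeq start site, 5′ to 3′ on the gene's strand, with GRCm38.p6 coordinates. Capitals mark the TATA box searched as TATAAA, the CCAAT element, the octamer searched as ATTTGCAT and the H1 box searched as AAACACA. Both strands were searched, and a CCAAT on the opposite strand reads ATTGG here. The octamer on the opposite strand reads ATGCAAAT. None of the 4 motifs contains another.
Hist1h2bb, chr13:23746484-23746733, plus strand: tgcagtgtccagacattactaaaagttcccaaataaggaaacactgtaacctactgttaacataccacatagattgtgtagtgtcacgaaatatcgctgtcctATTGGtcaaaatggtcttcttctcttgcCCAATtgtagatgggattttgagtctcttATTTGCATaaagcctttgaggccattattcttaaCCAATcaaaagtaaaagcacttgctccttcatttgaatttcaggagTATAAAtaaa
Hist1h1b, chr13:21780626-21780875, minus strand: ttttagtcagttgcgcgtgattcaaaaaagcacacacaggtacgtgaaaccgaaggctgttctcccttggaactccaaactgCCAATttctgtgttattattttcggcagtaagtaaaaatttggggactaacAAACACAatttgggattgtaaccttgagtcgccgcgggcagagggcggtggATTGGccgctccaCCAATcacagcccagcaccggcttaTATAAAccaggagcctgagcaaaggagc
Hist1h2bm, chr13:21721794-21722043, plus strand: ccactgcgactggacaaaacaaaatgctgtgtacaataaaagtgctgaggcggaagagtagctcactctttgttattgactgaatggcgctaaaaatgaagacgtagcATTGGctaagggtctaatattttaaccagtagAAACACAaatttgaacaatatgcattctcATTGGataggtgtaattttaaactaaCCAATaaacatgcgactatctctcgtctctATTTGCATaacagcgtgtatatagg
Hist3h2a, chr11:58954435-58954684, plus strand: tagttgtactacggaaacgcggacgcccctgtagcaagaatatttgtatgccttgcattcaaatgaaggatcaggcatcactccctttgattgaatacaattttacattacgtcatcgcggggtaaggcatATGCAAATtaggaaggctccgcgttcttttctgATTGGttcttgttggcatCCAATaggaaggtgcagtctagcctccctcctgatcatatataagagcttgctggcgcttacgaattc

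Hist1h2bb carries an octamer that begins 90 bases before the start site and a TATAAA 10 bases before it. Hist1h1b, an H1 gene, carries AAACACA 117 bases and TATAAA 28 bases before its start. Hist1h2bm has an octamer at 25 bases and AAACACA at 110 bases, with 3 copies of CCAAT; its RefSeq start lies upstream of the start of the deposited model. Hist3h2a, whose fold change was the lowest of all members, has an octamer on the opposite strand at 119 bases and CCAAT at 68 and 86 bases. Neither TATAAA nor AAACACA was found in its window. Among the called genes, TATAAA was likewise not found for Hist1h2bm, nor AAACACA for Hist1h2bb.

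RefSeq promoters, here 250 bases before to 50 after the start, were matched for 57 members, with 58 windows because Hist1h2be has more than one. Not matched were Hist1h2aj, Hist1h2al, Hist1h2bc, Hist1h3a, Hist1h3f, Hist2h2be, Hist2h4 and Hist3h2bb-ps. CCAAT stood in 49 of 58 member windows (84.5%), against 37.4% of all 32851 promoters. It was in every window of H1 (6), H2A (16), H2B (16) and H3 (8) and in 3 of 12 of H4. The octamer ATTTGCAT stood in 13 of 58 (22.4%) against 1.74% of all promoters, in 7 windows of H2A and 6 of H2B and in none of the other types. TATAAA stood in 34 of 58 (58.6%) against 13.6%. AAACACA stood in 5 of 6 windows of H1 and in 9 of 58 overall (15.5%), against 7.18% of all promoters. Head-to-head genes share much of a window and are not independent, and a match describes letters only.

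The 3′ stem-loop, the processing signal of these mRNAs, was searched on the transcript strand of GENCODE M21 transcripts as the 16-base pattern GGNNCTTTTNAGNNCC. It was found in 41 of 65 members and in 89 of all 55450 M21 genes (0.161%). A transcript model that ends near the stop codon holds no stem-loop. Some members without a match have long transcripts, such as Hist2h2be with 2620 bases. A missing match therefore means only that the pattern was not found, and it does not show that the gene lacks a stem-loop. The windows below show the stem-loop in capitals with 5 flanking bases on each side, for 2 members that passed the test, for the H4 gene with the highest fold change, and for the 4 members with the lowest fold changes among those with a match (GRCm38).
Hist1h2bb, stem-loop at chr13:23747203-23747218, plus strand: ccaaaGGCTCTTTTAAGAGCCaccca
Hist1h2bm, stem-loop at chr13:21722506-21722521, plus strand: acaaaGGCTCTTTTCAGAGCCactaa
Hist1h4b, stem-loop at chr13:23757366-23757381, plus strand: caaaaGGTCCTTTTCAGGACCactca
Hist4h4, stem-loop at chr6:136803998-136804013, minus strand: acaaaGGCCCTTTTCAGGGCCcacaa
Hist2h4, stem-loop at chr3:96262939-96262954, minus strand: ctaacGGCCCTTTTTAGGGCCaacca
Hist1h1c, stem-loop at chr13:23739512-23739527, plus strand: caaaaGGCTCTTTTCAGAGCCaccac
Hist3h2a, stem-loop at chr11:58955172-58955187, plus strand: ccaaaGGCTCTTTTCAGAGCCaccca

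The stem differs by histone type. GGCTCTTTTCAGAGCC was the most frequent form, with 23 members and no H4 gene among them. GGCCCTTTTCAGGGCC was found in 7 members, all of them H4. The H4 matches were completed by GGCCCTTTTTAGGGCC and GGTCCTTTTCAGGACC, each in 2 members, while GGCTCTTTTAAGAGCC was found in 6 members and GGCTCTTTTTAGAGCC in Hist2h2ac. Hist3h2a and Hist1h1c carry the most frequent form, as Hist1h2bm does. Hist4h4 carries the form most frequent in H4.

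In the authors' deposited table all 64 members with a p-value had positive log2 fold changes, of which 3 rose at an adjusted p under 0.05, and none fell. Over the whole table, 40.2% of the 24071 rows with a p-value were positive. The members ranged in log2 fold change from 0.08 to 1.79 in the authors' deposited table, and their median was 1.13, or 2.19-fold, against a median of -0.09 over all rows. A log2 fold change of 1 or more, a doubling, was reached by 43 of the 64, against 1.39% of all rows, so members made up 43 of the 334 such rows. The lowest member, Hist3h2a, was still above 68.8% of all rows in the authors' deposited table.

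**Figure D1:**
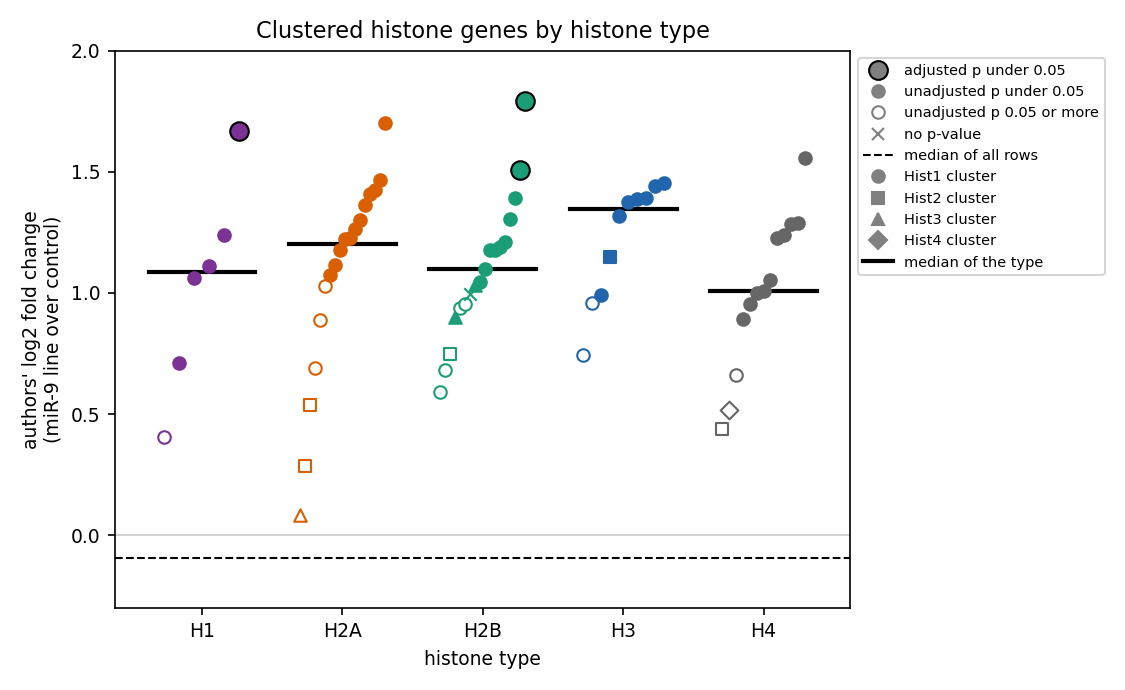
Log2 fold change, miR-9 line relative to control (vertical axis), for the 65 members by histone type (horizontal axis), from the authors' deposited table. Each point is 1 gene, with marker shape for its cluster, ringed points for an adjusted p under 0.05, filled points for an unadjusted p under 0.05, open points for a larger p and a cross for the gene without one. Bars are the medians, from 1.01 (H4) to 1.35 (H3), and the dashed line is the median of all rows at -0.09, below every member.

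The 3 genes that rose encode a linker histone and a pair of H2B proteins. Hist1h2bb (chr13:23746734-23747202, 1 exon of 469 bases, plus strand) rose 3.46-fold in the authors' deposited table, a log2 value of 1.79, with p = 9.45e-05 and a Benjamini-Hochberg adjusted p of 0.0320. Hist1h1b (chr13:21779883-21780625, 1 exon of 743 bases, minus strand) rose by 1.67 in the authors' deposited table, or 3.18-fold, with p = 5.83e-05 and an adjusted p of 0.0245. Hist1h2bm (chr13:21722098-21722478, 1 exon of 381 bases, plus strand) rose by 1.51 in the authors' deposited table, or 2.84-fold, with p = 0.000130 and an adjusted p of 0.0386. H2B genes code for a core histone, and H1 genes for the histone that binds linker DNA. These 3 calls compare with 0.245% of all rows called higher, and the 0 lower calls with 0.166% called lower.

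The other 61 members with a p-value missed the adjusted threshold, some of them with folds as large as those of the called genes. At an adjusted p under 0.10, 12 members passed, against 0.685% of all rows. At an unadjusted p under 0.01 there were 25 members (1.87% of all rows) and at 0.05 there were 47 (3.87%), all of them higher. No member was lower at an unadjusted p under 0.05, where 4.05% of all rows were. The threshold of 0.0001 that the study's design text names was met by Hist1h2bb and Hist1h1b, 2 members, against 0.158% of all rows. With a Benjamini-Yekutieli adjustment, which allows for any dependence between tests, no member passed.

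Among the 6 H1 genes, the median log2 fold change was 1.09 in the authors' deposited table, and 5 had an unadjusted p under 0.05. Hist1h1a, a somatic linker histone, stood at 1.24 (p = 0.000792, adjusted p = 0.0886) in the authors' deposited table. Hist1h1d, whose model is long at 3821 bases, stood at 1.06 in the authors' deposited table, with p = 0.00693 and a Benjamini-Hochberg adjusted p of 0.285. Hist1h1t, the linker histone of the male germ line, was at 1.11 in the authors' deposited table (p = 0.0370), a value between those of Hist1h1d and Hist1h1a. Hist1h1e was at 0.71 (p = 0.0371) in the authors' deposited table. Hist1h1c, a linker histone whose transcripts can also be polyadenylated, was the lowest of the H1 genes at 0.40 in the authors' deposited table (p = 0.284). H1 genes therefore spanned the range from a called rise to a fold change that did not pass.

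None of the 18 H2A genes passed at an adjusted p under 0.05, while 12 had an unadjusted p under 0.05, and their median was 1.20 in the authors' deposited table. Hist1h2af was the highest at 1.70, or 3.26-fold, in the authors' deposited table, with p = 0.000814 and an adjusted p of 0.0894. That fold exceeds the fold of Hist1h1b, which was called. The other 5 H2A genes with an unadjusted p under 0.01, Hist1h2ai, Hist1h2aj, Hist1h2ak, Hist1h2ab and Hist1h2al, lay between 1.18 and 1.47 in the authors' deposited table. A further 6, Hist1h2ae, Hist1h2ag, Hist1h2ah, Hist1h2an, Hist1h2ao and Hist1h2ap, lay between 1.08 and 1.30 in the authors' deposited table, with p-values between 0.0106 and 0.0380. The 6 without an unadjusted p under 0.05 were Hist1h2ad (1.03), Hist1h2ac (0.89), Hist1h2aa (0.69), Hist2h2ac (0.54), Hist2h2ab (0.29) and Hist3h2a (0.08, p = 0.841) in the authors' deposited table. All members outside Hist1 among the H2A genes were in this last set.

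H2B held 2 of the 3 calls and had a median of 1.10 over 17 genes in the authors' deposited table, of which 12 had an unadjusted p under 0.05. Hist1h2bl stood at 1.39 (p = 0.000395, adjusted p = 0.0684) and Hist1h2bn at 1.31 (p = 0.000848, adjusted p = 0.0915) in the authors' deposited table. Between 0.90 and 1.21 lay 8 genes with an unadjusted p from 0.01 to 0.05: Hist1h2bc, Hist1h2bg, Hist1h2bh, Hist1h2bj, Hist1h2bp, Hist1h2bq, Hist3h2ba and Hist3h2bb-ps. Hist1h2be, whose model of 4374 bases is the longest of all members, was the lowest H2B gene at 0.59 (p = 0.214) in the authors' deposited table. Hist1h2bf (0.96), Hist1h2br (0.94), Hist2h2be (0.75) and Hist1h2ba (0.68) also missed an unadjusted p of 0.05 in the authors' deposited table. The 2 called genes thus sat at the top of a continuous range.

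H3 had the highest median, 1.35 over 10 genes in the authors' deposited table, and no call at an adjusted p under 0.05. Its highest member was Hist1h3g at 1.45 (p = 0.000677, adjusted p = 0.0860), and its lowest was Hist1h3e at 0.74 (p = 0.129) in the authors' deposited table. The other 5 with an unadjusted p under 0.01, Hist1h3b, Hist1h3c, Hist1h3f, Hist1h3h and Hist1h3i, lay between 1.32 and 1.44 in the authors' deposited table, a narrow range for 5 genes. Hist2h3c2 (1.15, p = 0.0170) and Hist1h3a (0.99, p = 0.0343) had larger p-values in the authors' deposited table, and Hist1h3d (0.96, p = 0.0553) missed 0.05. H3 is the core histone that carries most of the well-known lysine marks of chromatin.

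H4 had the lowest median, 1.01 over 13 genes in the authors' deposited table, and no call, with 10 genes at an unadjusted p under 0.05. Hist1h4b was the highest at 1.56, or 2.94-fold, with p = 0.000967 and an adjusted p of 0.0999 in the authors' deposited table. It lies wholly within the span of 4930558J22Rik on the opposite strand, which stood at 0.31 (p = 0.521) in the authors' deposited table. The use of strand in counting is not stated in the sources at hand. Without it, reads could not be told apart where exons of both genes overlap. Whole spans were compared here, 4930558J22Rik has 2 exons, and overlap of exons was not computed. Hist1h4f, Hist1h4h, Hist1h4j, Hist1h4k and Hist1h4m also had an unadjusted p under 0.01, with values from 0.89 to 1.29 in the authors' deposited table. Hist1h4a, Hist1h4c, Hist1h4d and Hist1h4n lay between 0.95 and 1.05. The lowest were Hist1h4i (0.66), Hist4h4 (0.52, p = 0.115) and Hist2h4 (0.44, p = 0.265) in the authors' deposited table. The differences between histone types were not tested.

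Equal folds went with unequal p-values. Hist1h2bn and Hist1h2an of the same block had 2.47-fold and 2.46-fold changes with p-values of 0.000848 and 0.0106 in the authors' deposited table. Hist1h4m, at 1.86-fold, had p = 0.00987, while Hist1h2ac, at 1.85-fold, had p = 0.0939 in the authors' deposited table. Counts and standard errors per gene were not used here, so the part of depth in these p-values was not tested.

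**Figure D2:**
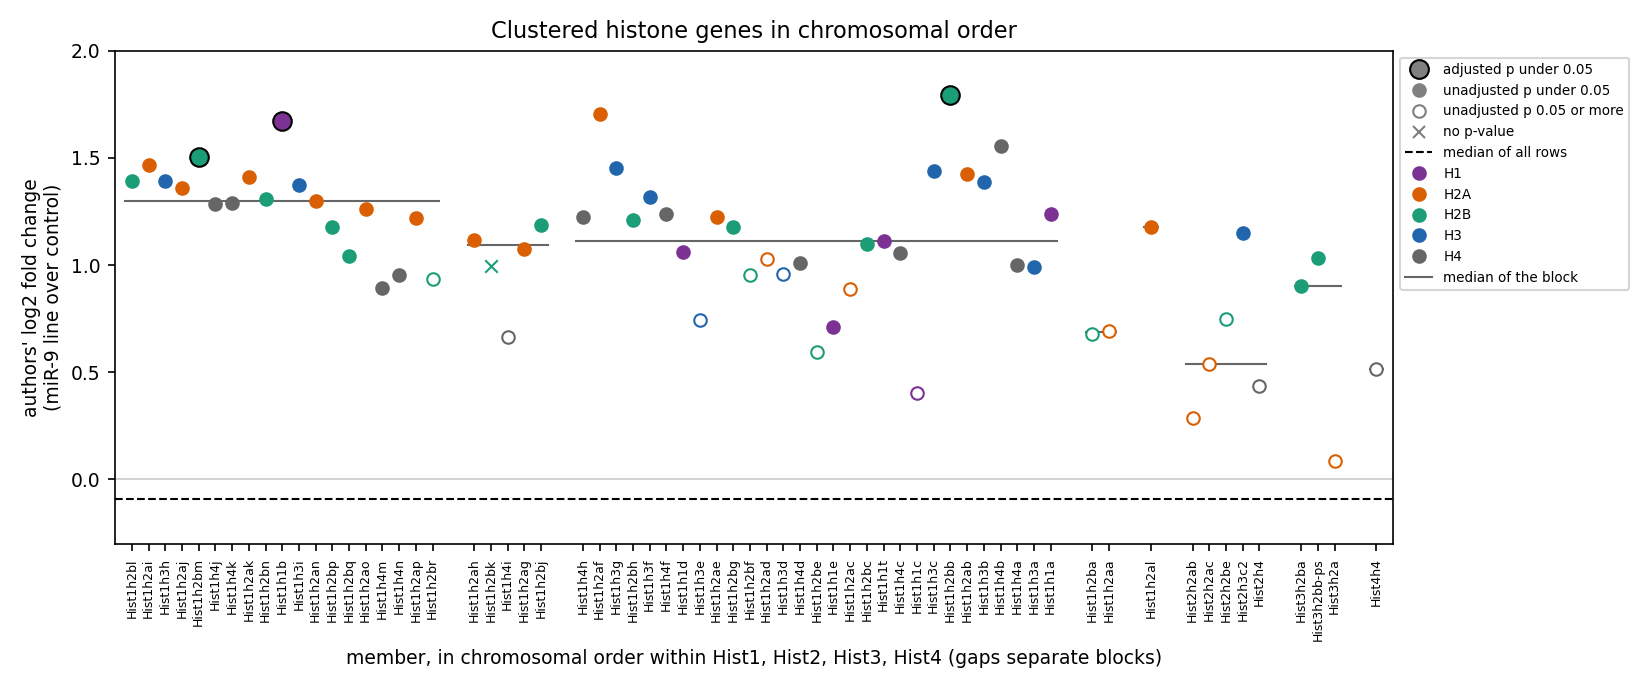
Log2 fold change from the authors' deposited table (vertical axis) for all 65 members in chromosomal order (horizontal axis, gene names), with gaps between blocks of neighbouring members. Colours give the histone type, ringed, filled, open and crossed points are as by histone type, grey lines are block medians and the dashed line is the median of all rows at -0.09. The large Hist1 blocks lie around 1.30 and 1.11, while Hist2 has a median of 0.54 and Hist4h4 stands at 0.52.

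By cluster, Hist1 held all 3 calls, with a median of 1.19 over 55 genes in the authors' deposited table and 44 genes at an unadjusted p under 0.05. Hist2 had a median of 0.54 over 5 genes in the authors' deposited table, with 1 gene, Hist2h3c2, at an unadjusted p under 0.05. Hist3, a small cluster of H2A and H2B genes, held Hist3h2ba at 0.90 (p = 0.0403), the pseudogene Hist3h2bb-ps at 1.03 (p = 0.0137) and Hist3h2a at 0.08 (p = 0.841) in the authors' deposited table. Hist4 holds the single gene Hist4h4 at 0.52. The 9 members outside Hist1 make a small set, and the difference between clusters was not tested.

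Members more than 100000 bases apart were put in separate blocks, which gave 5 blocks in Hist1. The block at chr13:21715763-21837530, from Hist1h2bl to Hist1h2br, held 19 members, with median 1.30 in the authors' deposited table, 2 of the calls (Hist1h1b and Hist1h2bm) and 18 members at an unadjusted p under 0.05. The block at chr13:23531044-23764414, from Hist1h4h to Hist1h1a, held 29 members, with median 1.11 in the authors' deposited table, the call of Hist1h2bb and 22 members at an unadjusted p under 0.05. Its range was wider, from Hist1h1c at 0.40 to Hist1h2bb at 1.79, and these genes lie near each other. The block at chr13:22035113-22043676 held 5 members, with median 1.10 in the authors' deposited table over the 4 that have a p-value.

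The remaining blocks hold genes apart from the main array. Hist1h2ba and Hist1h2aa, a head-to-head H2B and H2A pair known from the male germ line, stood at 0.68 (p = 0.201) and 0.69 (p = 0.150) in the authors' deposited table. Hist1h2al, which M21 classes as a processed pseudogene, lies alone at chr13:51202688-51203065 and stood at 1.18 (p = 0.00247) in the authors' deposited table. Of its 50-base stretches, 67.6% are also present in transcripts of other genes, so reads of parent genes could be counted there.

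Many H2A and H2B genes are divergently transcribed from a shared promoter region. There were 14 head-to-head pairs with models that do not overlap and starts within 1000 bases of each other. Of these, 13 join an H2A gene with an H2B gene. The head-to-head rows Hist1h2aj (1.36) and Hist1h2bm (1.51) were left out because their models overlap by 34 bases. In the 13 pairs whose partners both have a p-value, which leaves out Hist1h2ah with Hist1h2bk, partners differed in log2 fold change by a median of 0.11 in the authors' deposited table, against 0.32 over all 2016 pairs of members with a p-value. Partners also lie in the same block, and the comparison is a description with no test. Hist1h2bl at 1.39 and Hist1h2ai at 1.47, 268 bases apart, were the highest of the 14 pairs without overlap in the authors' deposited table. Hist1h2ba and Hist1h2aa, 305 bases apart, differed least, by 0.01. Hist3h2bb-ps and Hist3h2a, 172 bases apart, differed most, by 0.95 in the authors' deposited table.

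Hist3h2a differs from the other members in its gene model. Its row (chr11:58954685-58956674, 1 exon of 1990 bases) lies wholly in the row of Trim17 on the same strand and begins at the same base, and Trim17 stood at -0.02 (p = 0.966) in the authors' deposited table. In M21, 31.5% of the 50-base stretches of the longest Hist3h2a transcript are also in Trim17 transcripts. The assignment of reads from both genes is not stated in the sources at hand, and the value of Hist3h2a is uncertain. Hist1h2aj and Hist1h2bm overlap by 34 bases on opposite strands, and both had high fold changes, 1.36 and 1.51 in the authors' deposited table.

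**Figure D3:**
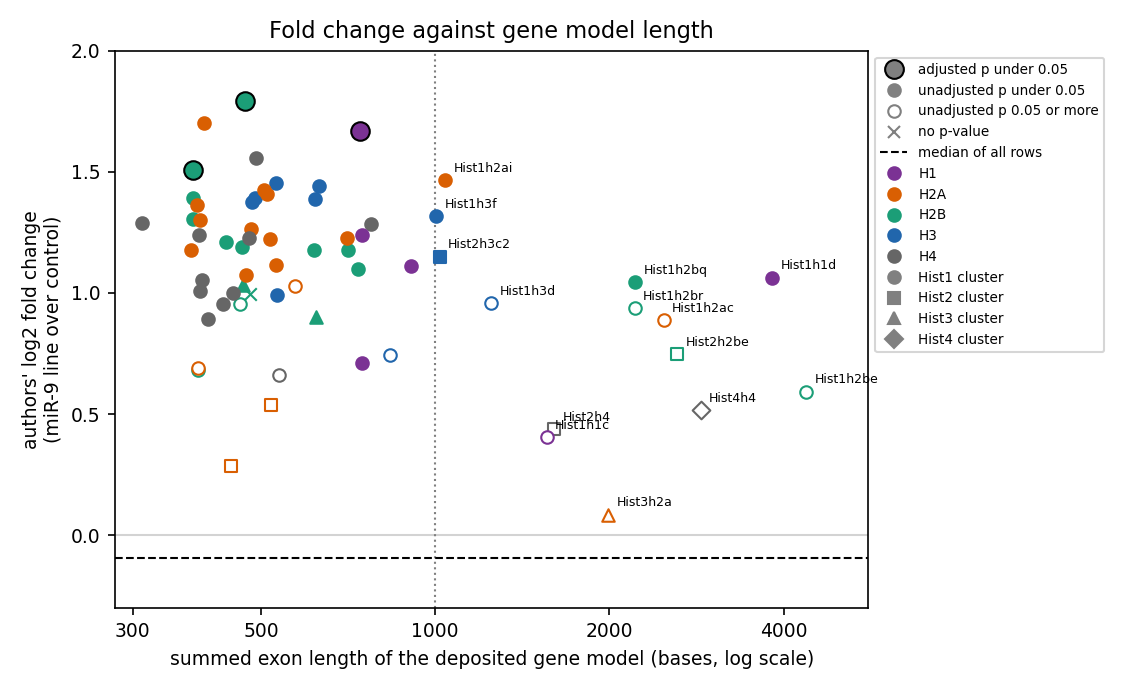
Log2 fold change from the authors' deposited table (vertical axis) against the summed exon length of each deposited gene model in bases (horizontal axis, log scale) for the 65 members, with shapes for clusters and the symbols of models over 1000 bases written out. The dotted line marks 1000 bases. The 3 ringed genes with an adjusted p under 0.05 all lie to its left, and the longer models have a median of 0.91 against 1.20 for the shorter ones.

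Members with long gene models had lower fold changes. The 50 tested members with a model of 1000 bases or less had a median of 1.20 in the authors' deposited table and held all 3 calls, while the 14 with longer models had a median of 0.91 and no call. Within Hist1 the medians were 1.22 (46 genes) and 0.96 (9 genes) in the authors' deposited table. Across the 64 members, Pearson's r of the log2 fold change with log2 length was -0.43 and Spearman's rho was -0.31. Within the 55 Hist1 members with a p-value, r was -0.36 and rho -0.23. The points share the same 5 libraries, and across all rows r was -0.12 and rho -0.10. Over all rows the medians were -0.02 for models of 1000 bases or less and -0.11 for longer ones in the authors' deposited table. Hist1h2ai (1041 bases, 1.47) and Hist1h3f (1004 bases, 1.32) lay just past the dividing length and had high values.

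The stem-loop windows shown above locate the usual end of the mRNA, and the deposited models run past it by different lengths. Of the 41 members with a match, 6 have models with more than 1000 exonic bases beyond it: Hist1h1d (1.06), Hist1h2ac (0.89), Hist1h2be (0.59), Hist4h4 (0.52), Hist2h4 (0.44) and Hist3h2a (0.08). Their median was 0.55 in the authors' deposited table, and Hist1h1d alone had an unadjusted p under 0.05. The 19 members with up to 100 bases beyond it had a median of 1.08, and the 12 with more than 100 and up to 1000 bases one of 1.13. In 3 tested members, Hist1h2bb, Hist1h2bm and Hist1h2ap, the model ends before or in the stem-loop, and their median was 1.51 in the authors' deposited table. The 24 members without a match, Hist1h1b among them, had a median of 1.27. These classes were set after the values were seen, and the level of reads beyond the stem-loop was not analysed here.

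Core histone genes of a type code for near-identical proteins, and their transcripts share sequence. A median of 49.5% of a member's 50-base stretches, the read length, also occurred in M21 transcripts of another gene, and 31 of 65 members shared more than 50%. Stretches were taken from the longest M21 transcript of each member, which can differ in length from the deposited model. For Hist1h2bh, with 18.8% shared, the transcript has 1679 bases and the deposited model 436. The median share was 1.13% in H1, 67.3% in H2A, 44.5% in H2B, 57.2% in H3 and 39.5% in H4. Hist1h1b, which rose, shared 0% with annotated transcripts of other genes. Only exact matches were searched, and the rest of the genome was not. Hist1h2bb shared 40.1% and Hist1h2bm 43.8%. Hist1h2bq shared the most, 97.3%, all with Hist1h2br, so these genes can hardly be told apart by reads of this length. Their values were 1.04 and 0.94 in the authors' deposited table.

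**Figure D4:**
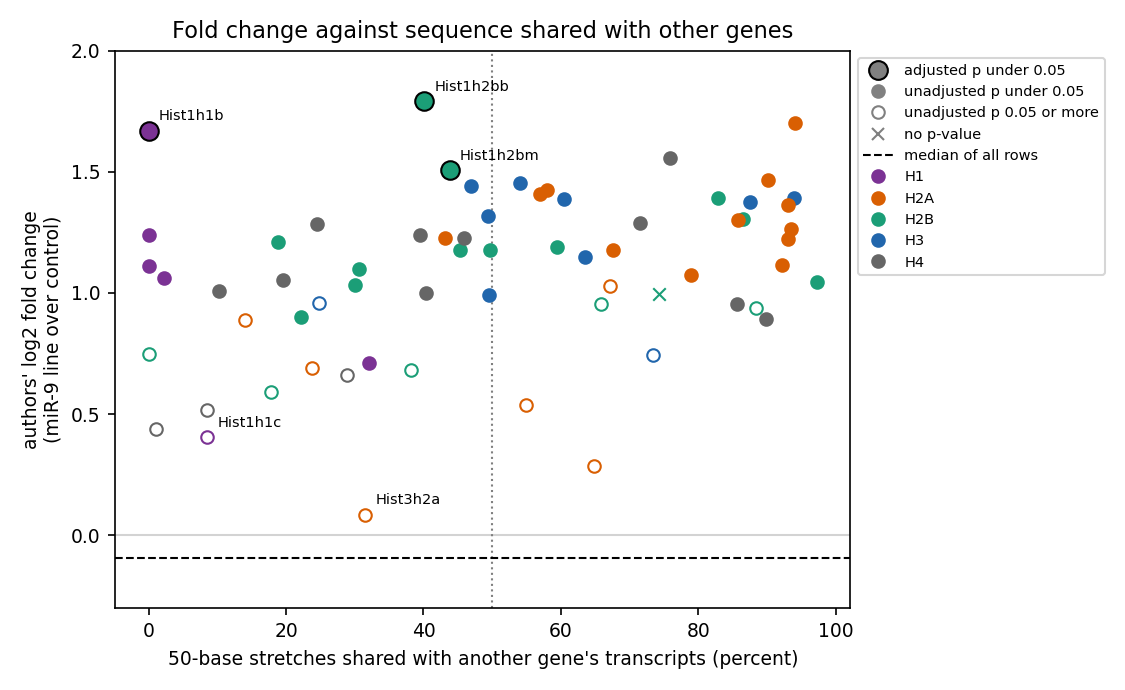
Log2 fold change from the authors' deposited table (vertical axis) against the share of a member's 50-base stretches that also occur in transcripts of another M21 gene, in percent (horizontal axis), for the 65 members coloured by histone type. Stretches were taken from the longest M21 transcript of each member. The dotted line marks 50 percent. The 3 ringed genes with an adjusted p under 0.05 lie to its left, between 0 and 43.8 percent.

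The sources used here do not say how reads that match several genes were handled. The 34 members with at most 50% shared stretches had a median of 1.04 and a range from 0.08 to 1.79 in the authors' deposited table, with all 3 calls. This split follows the longest M21 transcript, and the share within the deposited models was not computed. For the called Hist1h2bm that transcript has 524 bases and the deposited model 381, so its side of the split is uncertain. The 30 tested members with a larger share had a median of 1.24 and no call in the authors' deposited table. All 64 tested members were positive, so any split gives positive values on both sides, and the effect of shared reads was not tested. Fold changes of members that share over 50% are uncertain for single genes, since reads could be split between copies.

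Genes that use or accompany new histones were read from lists chosen by function. DNA replication genes of S phase were positive in 41 of 41 with a median of 0.81 in the authors' deposited table, 32 of them at an unadjusted p under 0.05. Mcm10, which helps to start replication forks, rose by 1.40 (adjusted p = 0.0386), and Rrm1, the large subunit of ribonucleotide reductase, by 1.23 (adjusted p = 0.0396) in the authors' deposited table. Pcna, the sliding clamp, stood at 0.24 (p = 0.513) in the authors' deposited table. These genes lay in the same direction as the histone genes, from the same samples, and their part in the histone values was not tested.

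Histone chaperones, which escort histones to DNA, had 1 call among 26 genes, 18 positive values, 12 genes higher at an unadjusted p under 0.05 and a median of 0.34 in the authors' deposited table. Asf1b, a chaperone of H3 and H4 found mostly in dividing cells, rose by 1.55, or 2.93-fold (p = 2.36e-05, adjusted p = 0.0142) in the authors' deposited table. Chaf1a, the large subunit of the chromatin assembly factor, stood at 1.14 (p = 0.00107, adjusted p = 0.107), and its partner Chaf1b stood at -0.03 (p = 0.932) in the authors' deposited table. Nasp, which binds soluble H3 and H4, stood at 0.62 (p = 0.00907, adjusted p = 0.328) in the authors' deposited table. Mcm2 is in both this list and the replication list. The chaperones thus ranged from a called rise to -0.47 for Cdan1 (p = 0.0674), with 8 negative values, in the authors' deposited table.

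The machinery that transcribes and trims histone mRNA had no call. Over 23 genes, 18 values were positive and 5 negative, with a median of 0.09 and a range from -0.26 to 0.40 in the authors' deposited table. In either direction, 0 genes had an unadjusted p under 0.05. Slbp, the stem-loop binding protein, was the highest at 0.40 (p = 0.0561) in the authors' deposited table. Npat, the coactivator of histone transcription, stood at -0.03 (p = 0.881), and Casp8ap2, which encodes the processing factor FLASH, at 0.04 (p = 0.869) in the authors' deposited table. Lsm10 (0.11, p = 0.718) and Lsm11 (0.07, p = 0.780), subunits of the U7 snRNP, were likewise near 0 in the authors' deposited table. A p that misses the threshold does not show that these transcripts were equal between the genotypes.

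Histone variants encoded outside the clusters, mostly polyadenylated and replication-independent, had 1 call among 13 genes, 9 positive values and a median of 0.13 in the authors' deposited table. Cenpa, the centromeric H3 variant, rose by 1.49, or 2.81-fold (p = 0.000134, adjusted p = 0.0386) in the authors' deposited table. H2afx, the variant that is phosphorylated at DNA breaks, stood at 1.14 (p = 0.00715, adjusted p = 0.289), and H2afz at 0.63 (p = 0.0209, adjusted p = 0.465) in the authors' deposited table. The replacement H3 genes H3f3a and H3f3b stood at -0.05 (p = 0.862) and 0.03 (p = 0.936) in the authors' deposited table. H1f0, the linker histone of resting cells, stood at 0.56 (p = 0.128) in the authors' deposited table. The difference between the clustered genes and the variants was not tested.

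**Figure D5:**
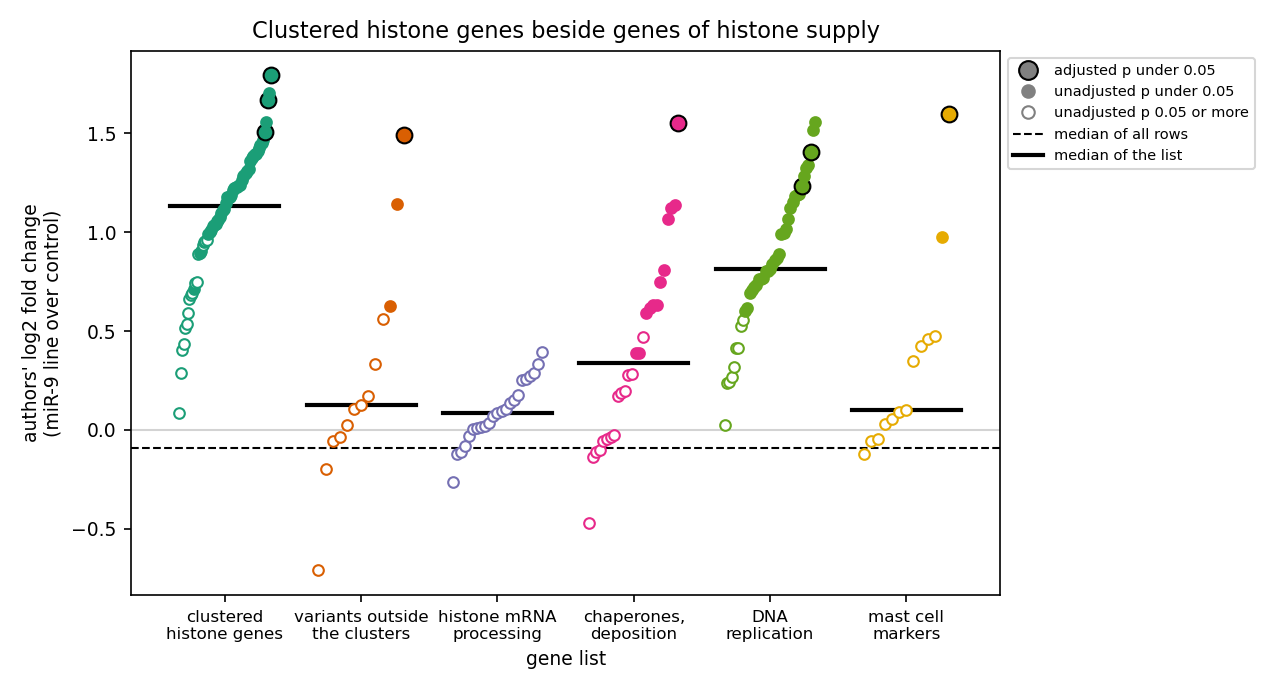
Log2 fold change from the authors' deposited table (vertical axis) for every gene with a p-value in each gene list (horizontal axis), with black bars for list medians and a dashed line for the median of all rows at -0.09. Ringed points have an adjusted p under 0.05, filled points an unadjusted p under 0.05 and open points a larger p. The clustered histone genes (median 1.13) and DNA replication genes (0.81) lie above the processing genes (0.09) and the mast cell markers (0.10).

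Fold changes of cell type marker genes were also read, which cannot show which cells the samples held. All 13 mast cell markers had a p-value, with a median of 0.10 in the authors' deposited table and 1 call, the tryptase gene Tpsb2 at 1.60 (adjusted p = 0.0149). At an unadjusted p under 0.05 there were 2 mast cell markers, Tpsb2 and the chymase gene Cma1 at 0.97 (p = 0.0176, adjusted p = 0.442) in the authors' deposited table. Kit (-0.04), Fcer1a (0.09) and Cpa3 (0.42) did not pass the test in the authors' deposited table. None of 10 neutrophil markers and 1 of 9 monocyte and macrophage markers had a p-value. All 9 erythroid markers had one, with a median of 0.77 in the authors' deposited table, 0 calls and 1 gene, Hbb-bs at 1.09 (p = 0.0405), at an unadjusted p under 0.05. Lymphocyte markers had negative values in 7 of 7, a median of -0.53 and 0 calls in the authors' deposited table, with 1 gene at an unadjusted p under 0.05, and basophil markers had 2 of 4 with a p-value and 0 calls. Levels of these markers were not analysed here, and their part in the histone values was not tested.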

How the data were processed

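RNA-seq of 5 samples in 2 genotypes was deposited as 1 table with 25549 rows, each a gene model. The authors, per the submitters' processing notes, used DESeq, DESeq2, Cuffdiff, HTSeq and STAR and the builds mm10 and GRCm38, without roles or versions stated. Per the labels' design text, the authors used DESeq2 with a p threshold of 0.0001, and a one-way ANOVA is named too. Per the file headers, the authors deposited the log2 fold change (positive for genes higher in the miR-9 line). The deposited signed linear fold is a score that carries the same change, matching it within 0.001 in every row (100 percent). The authors' p-value is given for 24071 rows, and gene length, summed over exons in bases, comes with each row. Low-value filters, use of strand, handling of reads with several matches and shrinkage of folds are not stated in those sources. The 5 columns of values per library have names that match no sample label and were not used, so depth, errors per gene and the planned count tests were left out. 

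Benjamini-Hochberg adjustment over the 24071 deposited p-values was made with statsmodels 0.14.6, and a gene was called at an adjusted p under 0.05. Medians and counts take rows with a p-value. Stem-loops and shared stretches were read from GENCODE M21 transcripts, promoters from RefSeq (GRCm38.p6). Python 3.11.15, numpy 2.4.6, pandas 2.3.3, scipy 1.17.1 and matplotlib 3.10.9 were used, and the steps were tested on simulated data. The members and lists were chosen with earlier results of these data known. Named genes were all called members, the highest and lowest of each type, members with an unadjusted p under 0.01, members of Hist3 and Hist4, called genes of the supply lists and 15 fixed supply genes; others were named after their values were seen.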

Additional observations from a re-analysis of the deposited data

How the results depend on the processing

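The count of 3 members called higher became 0 with a Benjamini-Yekutieli adjustment and 12 at an adjusted p under 0.10. It was 2 at the design text's unadjusted p under 0.0001 and 2 without members that overlap another row, and 3 under the other alternatives run, and no member was called lower under any. The median log2 fold change of 1.13 was 1.15 without the -ps pseudogene, 1.18 without testis-type genes, 1.20 for models of 1000 bases or less, 1.11 without overlapping rows, 1.12 with the member that has no p-value and 1.22 after subtracting the median of all rows. It was 1.04 for members with at most 50% shared stretches, an alternative chosen after seeing the data. Also chosen then, the 4 genes called in the supply lists became 0 with Benjamini-Yekutieli and 9 at an adjusted p under 0.10. Their count was 1 at p under 0.0001 and 5 with the adjustment over protein-coding rows only. For non-histone genes in the cluster spans, the 0 calls became 1 at an adjusted p under 0.10, a setting also chosen then. No paired analysis was possible because the columns per library match no sample label. For the same reason leaving out each sample, another normalization and a filter on low counts were not run, and depth limits could not be given.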

Other observations

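From Hist1h2bl to Hist1h2aa on chromosome 13 (chr13:21715763-23934851), 34 rows are no histone genes, and among the 33 tested rows the median was -0.09 on the log2 scale, with 13 above 0, from the authors' deposited table. None was called by Benjamini-Hochberg adjustment with statsmodels or by the Benjamini-Yekutieli adjustment, and 1 was higher and 1 lower at an unadjusted p under 0.05. The extremes, chosen after their values were seen, were the predicted gene Gm11295 at 1.16 (p = 0.0170) and the receptor pseudogene Vmn1r-ps97 at -1.32 (p = 0.01002) in the authors' deposited table. Carried on to the distant Hist1h2al, the span held 225 such rows with a p-value, 99 positive values and a median of -0.06, all from the authors' deposited table. With 0 called, 7 were higher and 10 lower at an unadjusted p under 0.05. E2f3, a transcription factor of cell cycle genes, stood at 0.79 (p = 0.000787, adjusted p = 0.0886), and Gmnn, which encodes the replication licensing inhibitor geminin, at 0.93 (p = 0.00155, adjusted p = 0.126) in the authors' deposited table. In the Hist2 span 4 such rows had a median of 0.09. Whether the histone genes differ from their neighbours was not tested.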
